A study of Mus musculus with 24 samples.

Results

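The genes described here are 45 cell cycle and DNA replication genes, 27 that act in mitosis and 18 that act in the start and course of DNA replication, chosen as a list of symbols and found among the 55401 Ensembl genes of the count table through GENCODE M21. They were followed in 24 mouse prostate tumors made with TC2Ras cells, which are TRAMP-C2 prostate adenocarcinoma cells engineered with, among other changes, activated H-Ras. The study asked how cabozantinib (cabo), an oral inhibitor of receptor tyrosine kinases such as MET and the VEGF receptors, and gene delivery of the cytokine IL-27 act on such tumors. All host mice were male C57/BL6 animals aged 8 to 10 weeks. In the subcutaneous (SC) model, TC2Ras cells were placed in each flank, an empty vector (SC control, n = 2) or a vector for IL-27 (SC IL-27, n = 2) was delivered to muscle with ultrasound, and the tumors were taken a week later. In the intratibial model, luciferase-marked TC2Ras cells (TC2Ras-Luc) were placed in each tibia of mice that received the empty vector or the IL-27 vector together with daily cabo or its polyvinylpyrrolidone vehicle (PVP). The groups were empty vector with PVP (control), IL-27 vector with PVP (IL-27), empty vector with cabo (cabo) and IL-27 vector with cabo (IL-27+cabo), with 3 tumors each at day 14 (D14) and 2 tumors each at the ethical endpoint (EOS). Cabo or PVP was given in the first 2 weeks. The day on which each EOS tumor was taken is not given, and the study reported longer survival in the cabo and IL-27+cabo groups than in control. At EOS, tumor age and time since the last dose therefore cannot be told apart from treatment. All tumors came from the same engineered line, and the IL-27 was made by the injected muscle rather than by the tumor. The labels name a mouse for each intratibial tumor but not for the subcutaneous ones, so the p-values of the subcutaneous comparison measure only the spread between those samples, which may be technical.

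A cell that divides passes from G1 through DNA synthesis to mitosis, driven by cyclins that switch on cyclin-dependent kinases. The replication genes are turned on mainly around the entry to DNA synthesis by E2F factors, while the mitosis genes are turned on later, when the MuvB core complex with MYBL2 and then FOXM1 acts at CHR elements in their promoters, many of which also hold CCAAT boxes. In a tumor, the summed level of these transcripts is widely read as a mark of proliferation. In bulk RNA, fewer dividing cells and less of these transcripts per dividing cell cannot be told apart.

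Promoter sequences, from 250 bases before to 50 after the start in RefSeq on GRCm38.p6, were matched by symbol for 37 of the 45 members. The 8 without an entry were Aurkb, Ccna2, Ccne2, Foxm1, Gins2, Kif20a, Mcm4 and Tpx2. The promoters of Cdk1, Aurka and Cdt1 are shown because these 3 genes passed the test in an intratibial comparison, and those of Ccnb1 and Mcm5 because they hold the motifs of their sets in close array. Capitals mark matches on either strand to the E2F motif TTCCCGC or its variants, which were TTCGCGC as well as TTGCCGC and, last, TTGGCGC, to the CHR motif TTTGAA or its other form TTTAAA, and to the box named for its letters, CCAAT. The windows are chr10:69352863-69353162 (minus strand) for Cdk1, chr2:172370521-172370820 (minus strand) for Aurka, chr13:100786437-100786736 (minus strand) for Ccnb1, chr8:122567765-122568064 (plus strand) for Cdt1 and chr8:75109259-75109558 (plus strand) for Mcm5. An E2F match in the reverse direction can share bases with a CCAAT box, as in Ccnb1.
Cdk1: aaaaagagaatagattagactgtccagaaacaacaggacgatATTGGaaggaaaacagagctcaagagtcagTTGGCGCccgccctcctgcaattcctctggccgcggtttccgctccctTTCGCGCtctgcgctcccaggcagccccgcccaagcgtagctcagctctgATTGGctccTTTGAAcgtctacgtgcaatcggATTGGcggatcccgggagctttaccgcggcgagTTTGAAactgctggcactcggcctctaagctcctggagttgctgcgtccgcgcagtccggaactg
Aurka: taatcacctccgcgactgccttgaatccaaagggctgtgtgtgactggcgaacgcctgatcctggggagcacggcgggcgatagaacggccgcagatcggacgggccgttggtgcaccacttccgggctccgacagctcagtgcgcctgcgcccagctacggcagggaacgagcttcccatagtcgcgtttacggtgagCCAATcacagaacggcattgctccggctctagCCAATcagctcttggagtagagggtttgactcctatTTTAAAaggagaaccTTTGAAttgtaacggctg
Ccnb1: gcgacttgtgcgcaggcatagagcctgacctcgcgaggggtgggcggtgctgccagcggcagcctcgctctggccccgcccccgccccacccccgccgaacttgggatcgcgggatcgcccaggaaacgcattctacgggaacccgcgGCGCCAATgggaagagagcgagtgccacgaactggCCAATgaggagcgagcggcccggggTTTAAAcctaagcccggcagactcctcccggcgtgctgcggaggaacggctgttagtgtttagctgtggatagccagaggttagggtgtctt
Cdt1: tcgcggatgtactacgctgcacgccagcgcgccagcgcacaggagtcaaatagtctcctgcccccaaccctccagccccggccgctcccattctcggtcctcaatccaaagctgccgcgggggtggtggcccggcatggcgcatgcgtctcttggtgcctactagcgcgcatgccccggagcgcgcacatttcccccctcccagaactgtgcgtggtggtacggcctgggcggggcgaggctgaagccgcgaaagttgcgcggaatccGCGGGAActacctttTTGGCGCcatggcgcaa
Mcm5: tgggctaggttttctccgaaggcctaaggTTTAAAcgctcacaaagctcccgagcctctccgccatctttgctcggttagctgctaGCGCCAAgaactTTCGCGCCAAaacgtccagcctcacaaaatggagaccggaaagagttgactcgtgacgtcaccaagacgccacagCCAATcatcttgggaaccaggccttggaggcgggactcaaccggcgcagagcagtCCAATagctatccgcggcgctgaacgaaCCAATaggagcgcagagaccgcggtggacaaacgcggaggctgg

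A CHR motif was found in 19 of the 22 mitosis promoters (86.4%) and in 4 of the 15 replication promoters (26.7%), against 27.8% of 27025 mouse promoters of the same length. E2F motifs showed the opposite division, with 10 of 15 replication promoters (66.7%) and 4 of 22 mitosis promoters (18.2%) against 9.69% of all. CCAAT boxes stood in 86.4% of the mitosis promoters and 66.7% of the replication promoters, against 37.9% of all, and a CHR motif together with a CCAAT box in 81.8% and 20% of the sets against 10.9% of all. The sets that were named for function thus also differ in the letters of their promoters. A match describes the letters and is not evidence of a bound site.

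Libraries held between 63729005 and 83782258 counts on genes, and the 45 members took from 0.371% to 0.709% of them. The lowest count of any member in any tumor was 274 and the highest 88500, so counting error was small beside the spread between tumors, and all 45 members passed the filter on low counts in every comparison. In the subcutaneous libraries the level of a gene depended strongly on its GC content. Genes of the highest GC content lay 1.31 and 0.96 above the mean of the tumors in log2 CPM in the SC control tumors, and the IL-27 tumors lay below it. Among the intratibial libraries, that of IL-27+cabo mouse 20 at D14 stood apart in the same respect. Its deviations were 0.40 for the genes of highest and -0.56 for those of lowest GC content. It also had the fewest counts and detected genes, and comparisons that rest on it are given with and without it. Hoxb13, a marker from the prostate epithelium list, was at 0 in all 24 tumors. Other markers of that list were detected in every tumor, so Hoxb13 alone is not a check of the labelled tissue.

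In the D14 control tumors, scaled to the length of the exons, Pcna, the sliding clamp of DNA polymerase, was the highest of the 45 at 117 CPM per kb. It was followed by Top2a, the topoisomerase that untangles sister chromatids, at 69.6 CPM per kb. The helicase genes Mcm4 and Mcm6 and the anaphase activator gene Cdc20 came next, at 68.8, 68.4 and 66.5 CPM per kb. The lowest were the kinetochore protein gene Cenpf at 3.49, the spindle checkpoint kinase gene Ttk at 7.08 and the cyclin F gene Ccnf at 7.40 CPM per kb. Of the 44 steps between neighbours in this order of per-length levels, 38 were smaller than the larger SD of the pair, so most neighbours did not differ beyond their spread. Over the 20 intratibial tumors, Birc5 (survivin) had the widest range of log2 CPM (2.48) and Chaf1a, a chromatin assembly factor subunit, the narrowest (0.50). These ranges include IL-27+cabo mouse 20 at D14 and were not computed without it.

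As a mean over each set, the log2 CPM of the mitosis genes in the D14 control tumors was 7.03, 6.77 and 6.62, and that of the replication genes was 6.89, 6.76 and 6.76. The 3 D14 cabo tumors lay at 6.48, 6.61 and 6.48 for mitosis and at 6.52, 6.52 and 6.57 for replication, below every control tumor in both sets. At EOS the order of the mitosis means was reversed. The control tumors lay at 6.60 and 6.40, the cabo tumors at 6.69 and 6.76 and the IL-27+cabo tumors at 6.89 and 7.02, while the replication means of these EOS groups overlapped. The plot of set means shows these values in every tumor.

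**Figure D1:**
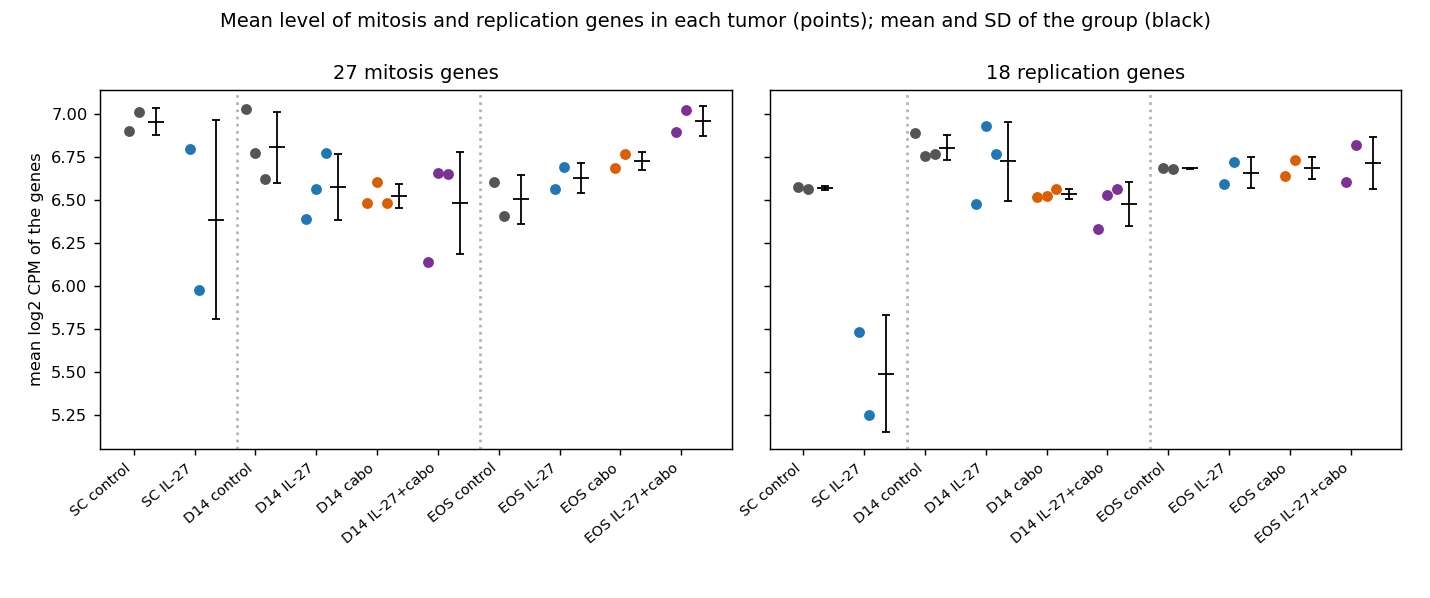
Mean log2 CPM of the 27 mitosis genes (left) and the 18 replication genes (right) in each tumor, with the mean and SD of each group in black (n = 2 or 3). Subcutaneous and intratibial tumors were normalized apart, so levels should not be compared across the first dotted line. The D14 cabo tumors lie below all D14 control tumors in both sets, and the EOS IL-27+cabo tumors lie at 6.89 and 7.02 in the mitosis set, above the other EOS tumors.

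At D14, cabo alone went with lower transcript levels of cell cycle genes on a broad but shallow front. Fold changes against control were below 0 in 41 of 45 members, as in 51.1% of all genes tested, with median log2 fold changes of -0.31 in the mitosis set and -0.29 in the replication set against -0.01 over all genes tested. With edgeR, 2 members fell at an adjusted p under 0.05, both kinases of mitosis, and none rose, where 0.693% of the 18627 genes tested fell and 1.2% rose. At an unadjusted p under 0.05 there were 27 members, all lower, where 9.27% of all genes were lower at that level. That count was 7 with all 20 intratibial tumors in 1 fit, 0 with a score of skeletal muscle genes as covariate and 13 to 33 when 1 tumor was left out (13 without cabo mouse 21, 17 without cabo mouse 27). The highest cabo tumor lay below the lowest control tumor in 28 members, where this held for 13.7% of all genes.

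The members that fell were Cdk1 and Aurka. Cdk1, the kinase that drives entry into mitosis, was at 186, 164 and 155 CPM in the control tumors and at 119, 116 and 116 CPM in the cabo tumors. The groups did not overlap, and the log2 fold change was -0.53 ± 0.09 (SE, edgeR adjusted p = 0.0338). Aurka, the kinase that matures centrosomes and builds the spindle, was at 105, 89.9 and 91.4 CPM in control and at 66.8, 67.7 and 69.4 CPM in cabo tumors. Again no cabo tumor reached a control tumor (log2 fold change -0.49 ± 0.09, edgeR adjusted p = 0.0376). Both promoters printed above hold CHR motifs and CCAAT boxes. Ccnb1, the cyclin that partners Cdk1, was at 173, 142 and 115 CPM in control and 113, 115 and 115 CPM in cabo tumors, with an edgeR adjusted p of 0.26. Among other markers of dividing cells, Mki67 had a log2 fold change of 0.10 ± 0.14 and Top2a one of -0.20 ± 0.10.

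Among the replication genes none passed the test at D14 under cabo. Pcna came closest, at 290, 246 and 308 CPM in control and 198, 195 and 199 CPM in cabo tumors (log2 fold change -0.51 ± 0.10, edgeR adjusted p = 0.052). All 3 cabo tumors lay below every control tumor. The MCM helicase gene Mcm2 had a log2 fold change of -0.18 ± 0.07, the G1 cyclin gene Ccne1 one of -0.17 ± 0.20 and E2f1, the transcription factor that turns on many replication genes, one of 0.04 ± 0.11. The 4 members with a fold change above 0, picked out after their values were seen, were Mki67, Cenpe, Cenpf and E2f1, from 0.04 to 0.16 on the log2 scale.

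Other genes of the same machinery, 141 in 7 lists, were examined beside the members. In D14 cabo tumors 124 had a fold change below 0 and 67 were lower at an unadjusted p under 0.05, against 1 higher, and edgeR called none (median log2 fold change -0.27). The origin licensing and replication fork genes were below 0 in 43 of 44 cases, and the genes of the kinetochore and spindle checkpoint in 19 of 21. Of the G1 cyclins, CDKs, RB and E2F families only 11 of 18 were below 0. Cyclin D1 (Ccnd1), which is set by mitogens, was at 596 ± 6.96 CPM under cabo and 593 ± 135 CPM in control (SD, n = 3). Cdkn1a, the inhibitor p21, was at 96.2 ± 20.02 and 69.8 ± 23.2 CPM (log2 fold change 0.47 ± 0.26, edgeR adjusted p = 0.375).

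These D14 values moved with the makeup of the tissue. All 8 skeletal muscle genes were detected in every D14 tumor, and their summed level was 4.57 to 113 CPM in control and 879 to 1459 CPM in cabo tumors, led by Acta1, the skeletal muscle actin. The summed level of 4 endothelial genes, led by Cdh5, was 152 to 247 CPM in control and 116 to 129 CPM in cabo tumors. That of 6 T cell genes was 50.5 to 54.9 and 13.6 to 20.2 CPM, with 5 lower and 1 higher at an unadjusted p under 0.05. That of 5 fibroblast genes was 5633 to 6806 and 8110 to 8625 CPM, with 4 fold changes above 0 and 1 below. The 8 genes of erythroid precursors, cells that divide in marrow, summed to 43.1 to 200.7 CPM in control and 11.6 to 24.1 CPM in cabo tumors, and of the 5 that were tested all had a fold change below 0 (median -2.40) and 4 an unadjusted p under 0.05. With the muscle score as a covariate the medians became -0.01 (mitosis) and -0.18 (replication) and no member was called, but the groups do not overlap in this score, so the treatment and the muscle content cannot be told apart. The part of the other cell types in the result was not tested. The 8 muscle genes held no more than 0.146% of the counts in any cabo tumor, a share that does not measure the muscle content of the tumor. Genes of dividing marrow granulocyte precursors summed to at most 0.869 CPM in every D14 tumor, with Mpo at 0 in 10 of 12. No member was called without any of the cabo mice 21, 25 or 27. There was 1 call without control mouse 7, where 127 of 19247 genes were called. There were 6 without control mouse 5, where 588 of 19195 genes were called. DESeq2 called 13 members, 7 of mitosis and 6 of replication, all lower, where it called 1483 of 18627 genes in either direction.

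**Figure D2:**
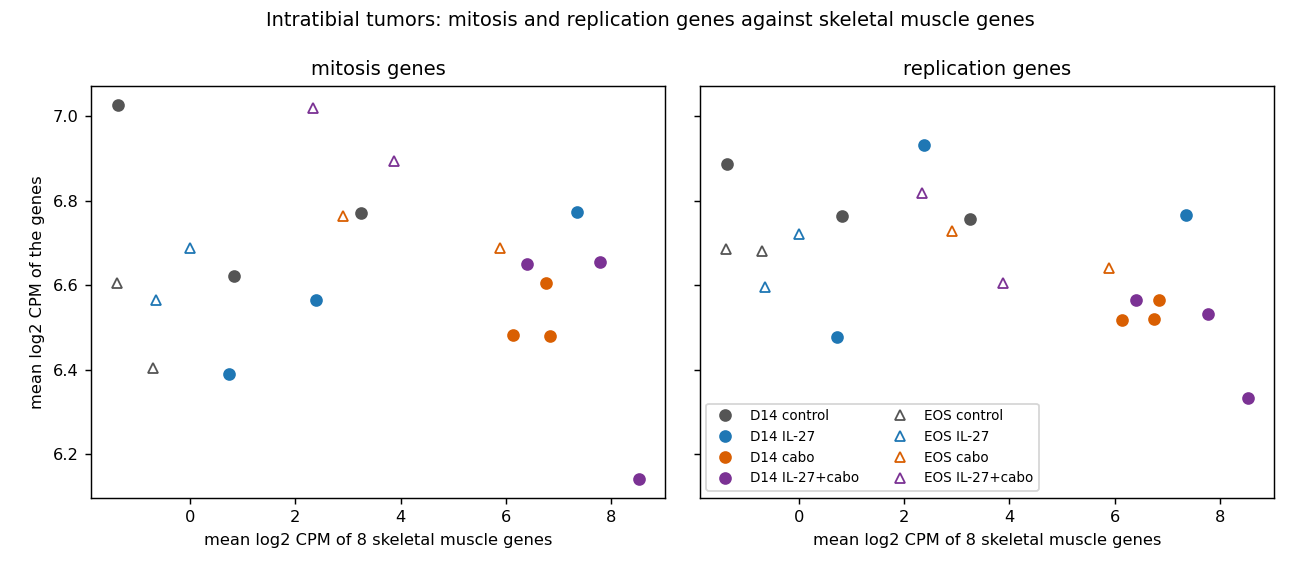
Mean log2 CPM of the mitosis genes (left) and replication genes (right) against the mean log2 CPM of 8 skeletal muscle genes in the 20 intratibial tumors (filled circles D14, open triangles EOS). The D14 cabo tumors lie between 6.13 and 6.83 on the muscle axis and the D14 control tumors between -1.36 and 3.26, with no overlap, while the EOS IL-27+cabo tumors, at 2.34 and 3.88, have the highest mitosis means of that time.

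With IL-27 alone at D14, fold changes were below 0 in 37 of 45 members and in 46.4% of all genes, with medians of -0.23 (mitosis) and -0.09 (replication). When 1 tumor was left out the mitosis median ran from -0.34 (without control mouse 7) to -0.095 (without control mouse 3), and without IL-27 mouse 4 the replication median was 0.006 and 28 members were below 0. No member was called by edgeR or by DESeq2, as for 0% of all 18519 genes tested with edgeR, and 1 was under an unadjusted p of 0.05, Bub1b, where 2.76% of all genes were. Bub1b, a spindle checkpoint kinase, had a log2 fold change of -0.34 ± 0.13, its relative Bub1 one of -0.39 ± 0.18 and the cytokinesis motor Kif20a one of -0.35 ± 0.17, each with an edgeR adjusted p of 1. Cdk1 was at 127, 174 and 221 CPM in the IL-27 tumors, a range that spans the control values.

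With IL-27+cabo at D14, 39 of 45 members had a fold change below 0, as had 46% of all genes, with medians of -0.29 (mitosis) and -0.25 (replication) against 0.05 over all genes. None was called by edgeR or DESeq2, where edgeR called 0.064% of 18750 genes and DESeq2 called 483 of them. Of the members, 1 had an unadjusted p under 0.05, where 6.2% of all genes had. This was the helicase gene Mcm5, at 105, 140 and 145 CPM against 203, 178 and 180 CPM in control (log2 fold change -0.50 ± 0.21, edgeR adjusted p = 0.799). Uhrf1, which carries DNA methylation through replication, had a log2 fold change of -0.70 ± 0.30, and Cdc6, which loads the helicase, one of -0.63 ± 0.28. The spread in this group came largely from mouse 20. Without it the log2 fold changes of Mcm5, Uhrf1 and Cdc6 were -0.39, -0.45 and -0.41. Its Cdk1 level was 272 CPM against 109 and 122 CPM in mice 22 and 24, and its Top2a level was 215 CPM against 554 and 528 CPM. Without mouse 20 the medians were -0.22 and -0.28, 42 members were below 0 and 8 had an unadjusted p under 0.05, again with none called. Summed muscle genes reached 1167 to 3685 CPM in this group, and with the muscle score as a covariate the mitosis median turned to 0.26. The test of whether IL-27 and cabo acted other than additively at D14 called no member, by edgeR or DESeq2, and none had an unadjusted p under 0.05, where 1.88% of 19899 genes had. The smallest p was that of Birc5 (interaction 1.38 ± 0.72, edgeR adjusted p = 0.952). Without mouse 20 the value of Birc5 was 0.33, and 5 members had an unadjusted p under 0.05, again with none called.

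At EOS the mitosis genes stood highest in the tumors that had received both agents. Against EOS control, all 27 mitosis genes had a fold change above 0 in IL-27+cabo tumors, where 49.6% of all genes had, with a median of 0.42 on the log2 scale, and 19 of them had an unadjusted p under 0.05. Of all genes, 7.36% were higher and 6.8% lower at that level. No member was called by edgeR, nor was any of the 20026 genes tested (0%). DESeq2 called 10 members, 9 mitosis genes higher and Cdt1 lower, where it called 928 of those 20026 genes in either direction. In 24 of the 27 mitosis genes both IL-27+cabo tumors lay above both control tumors, where this held for 21.2% of all genes. The replication genes did not follow. Their median was -0.04, 9 lay above 0 and 9 below, and 1 was higher and 2 lower at an unadjusted p under 0.05. The 22 members of both sets with such a p became 7 with all 20 intratibial tumors in 1 fit, 13 with the GC content and length correction and 13 without control mouse 13.

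Foxm1, the factor that turns on mitosis genes, was at 78.0 and 82.7 CPM in the EOS IL-27+cabo tumors and at 52.0 and 48.3 CPM in EOS control. Every other EOS tumor lay between, with 55.3 and 56.5 CPM under IL-27 and 61.6 and 60.7 CPM under cabo. The log2 fold change of the combination was 0.67 ± 0.10 (edgeR adjusted p = 0.142). Kif20a was at 168 and 173 CPM with both agents and at 106 and 90.9 CPM in control (0.79 ± 0.13, edgeR adjusted p = 0.152), and again the IL-27 and cabo tumors lay between, from 118 to 143 CPM. Mki67, the proliferation antigen Ki-67, was at 325 and 292 CPM against 218 and 177 CPM (0.64 ± 0.16). Ccnb1 was at 173 and 161 CPM against 121 and 106 CPM (0.55 ± 0.12). Cdk1 and Top2a did not share the separation, since their IL-27+cabo tumors overlapped the control tumors, with log2 fold changes of 0.24 ± 0.16 and 0.13 ± 0.12.

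Cdt1, which licenses replication origins together with Cdc6, ran the other way. It was at 164 and 133 CPM in EOS control, at 108 and 108 CPM under IL-27, at 98.3 and 102 CPM under cabo and at 99.95 and 83.4 CPM under both. All treated tumors lay below both control tumors. The log2 fold changes were -0.47 ± 0.14, -0.59 ± 0.14 and -0.70 ± 0.14, all against the same 2 control tumors, and the edgeR adjusted p of the last was 0.178. In the combination Pcna, Mcm2 and E2f1 had log2 fold changes of -0.15 ± 0.10, 0.12 ± 0.10 and -0.13 ± 0.13, and Ccne1 was at 18.7 and 30.5 CPM against 15.2 and 18.5 CPM. The plot of 4 genes shows Cdt1 beside Cdk1, Aurka and Kif20a.

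**Figure D3:**
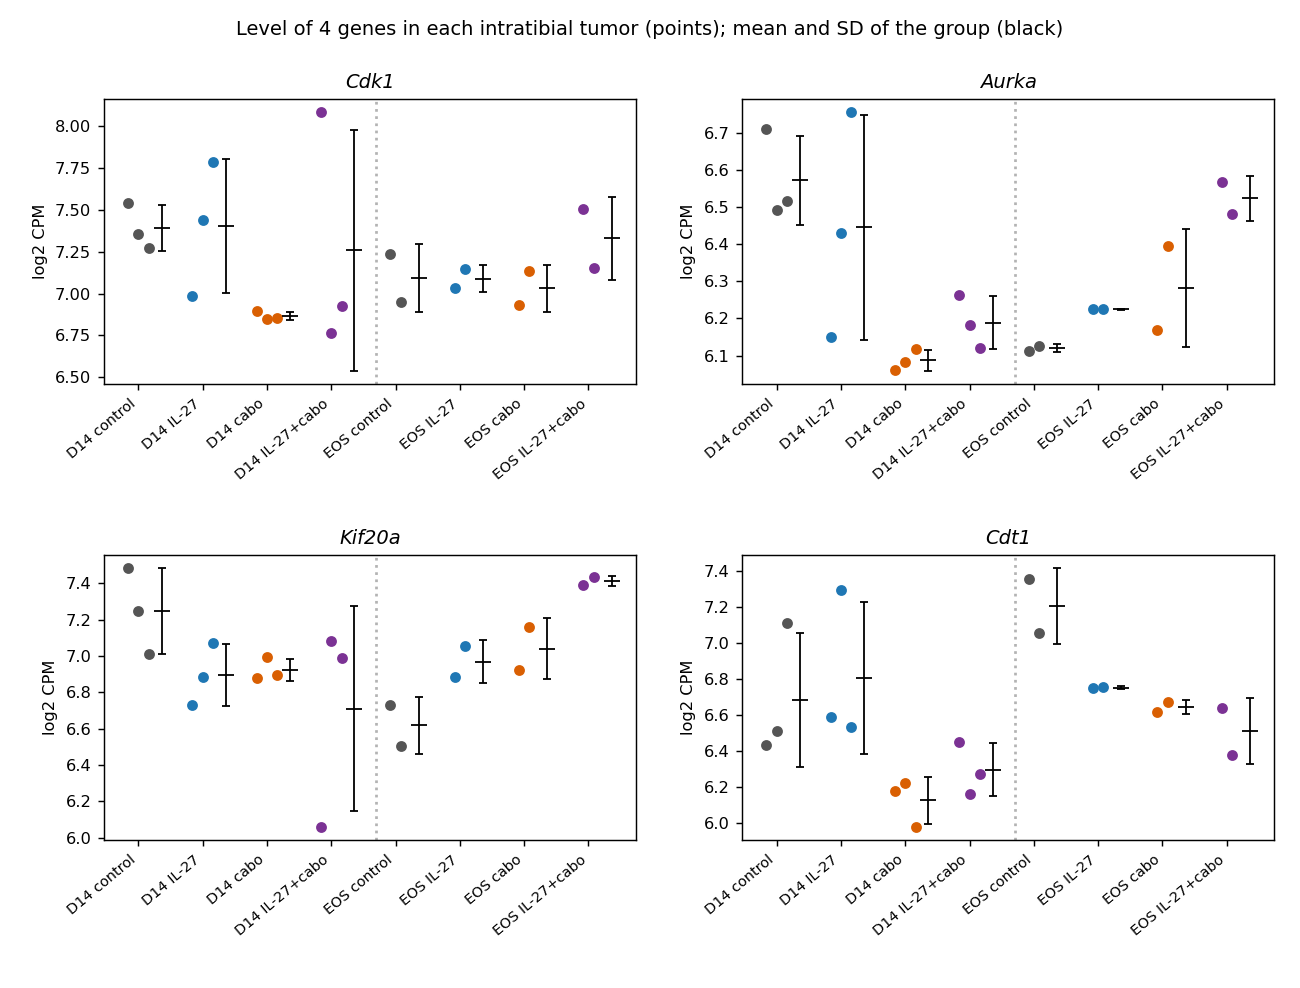
Level (log2 CPM) of Cdk1, Aurka, Kif20a and Cdt1 in each of the 20 intratibial tumors, with the mean and SD of each group in black (n = 3 at D14, n = 2 at EOS). Cdk1 and Aurka are lower in every D14 cabo tumor than in any D14 control tumor, Kif20a is highest of the EOS tumors in the IL-27+cabo group, and Cdt1 is highest of the EOS tumors in the control group.

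Cabo alone at EOS was compared with the same 2 control tumors. The mitosis median was 0.17 with 25 of 27 genes above 0 (48.9% of all genes), and the replication median -0.02. No member was called by edgeR (0% of all genes). DESeq2 called Cdt1 alone of the members and 270 of all 20026 genes. At an unadjusted p under 0.05 there were 10 members, where 8.9% of all genes were. The 7 that were higher at that level all belonged to the mitosis set, and the 3 lower ones, Cdt1, Mcm4 and Pcna, to the replication set. The 10 members became 1 with all 20 intratibial tumors in 1 fit and 4 with the GC content and length correction. Without control mouse 13 the mitosis median was 0.087. Cenpf, which binds kinetochores, was at 77.6 and 64.3 CPM against 51.0 and 47.0 CPM in control (log2 fold change 0.52 ± 0.16). Mcm4 was at 206 and 220 CPM against 282 and 277 CPM (-0.41 ± 0.12). Muscle genes summed to 93.8 and 714 CPM in these cabo tumors against 5.19 to 9.68 CPM in control (8 of 8 higher at an unadjusted p under 0.05), and T cell genes to 4.38 to 4.62 against 8.67 to 9.55 CPM (4 of 6 lower). The part of these cells in the result was not tested. IL-27 alone at EOS had medians of 0.11 (0.023 without control mouse 13 and 0.199 without control mouse 9) and -0.05, no call by edgeR (0% of all genes) or DESeq2, and 5 members under an unadjusted p of 0.05, where 3.25% of all genes were. These 5 became 0 with all 20 intratibial tumors in 1 fit and 1 with the GC content and length correction. Cdt1 (-0.47 ± 0.14), Cenpe (0.34 ± 0.12) and Cenpf (0.45 ± 0.16) had the smallest p.

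Of the 141 other cell cycle genes, 104 had a fold change above 0 in EOS IL-27+cabo tumors, 29 were higher and 3 lower at an unadjusted p under 0.05, and none was called. The spindle motor and cytokinesis genes were above 0 in 16 of 16 cases with a median of 0.36, and the origin licensing and replication fork genes in 25 of 44 with a median of 0.04. Ccnd1 was at 703 ± 29.0 CPM against 472 ± 10.8 CPM in EOS control (SD, n = 2 each, edgeR adjusted p = 0.178) and Cdkn1a at 50.5 ± 11.03 against 71.7 ± 24.4 CPM. Cell type genes differed here too. Summed muscle genes were at 77.3 to 178 CPM in IL-27+cabo and 5.19 to 9.68 CPM in control tumors. Endothelial genes were at 218 to 316 and 124 to 213 CPM. T cell genes were at 3.18 to 3.89 and 8.67 to 9.55 CPM, with 5 of 6 fold changes below 0 and 1 above. The part of these cells in the result was not tested.

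Between D14 and EOS, in control tumors, all 27 mitosis genes had a lower mean at EOS than at D14, where 50.4% of all genes had, and their median log2 fold change was -0.28, while the replication median was -0.06. No member was called by edgeR, where 0.104% of 19292 genes were, and 9 had an unadjusted p under 0.05, where 13.1% had. DESeq2 called Kif20a and Ccne2 lower, where it called 872 of the 19292 genes in either direction. Kif20a was at 179, 152 and 129 CPM at D14 and at 106 and 90.9 CPM at EOS (-0.62 ± 0.17, edgeR adjusted p = 0.234). The ribonucleotide reductase subunit gene Rrm2 and the cyclin E2 gene Ccne2 had log2 fold changes of -0.59 ± 0.17 and -0.54 ± 0.16. T cell genes summed to 50.5 to 54.9 CPM at D14 and 8.67 to 9.55 CPM at EOS in these tumors (4 of 6 called lower), and muscle and macrophage genes had median log2 fold changes of -2.63 and -0.98. The part of these cells in the result was not tested. Cdt1 stood apart from the mitosis genes, at 86.4, 91.2 and 139 CPM at D14 and 164 and 133 CPM at EOS.

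In cabo tumors, by contrast, 41 of 45 members were above 0 at EOS against D14, where 51.3% of all genes were, with medians of 0.20 (mitosis) and 0.16 (replication). Cdt1 rose, from 72.4, 74.6 and 63.1 CPM to 98.3 and 102 CPM (log2 fold change 0.52 ± 0.09, edgeR adjusted p = 0.0433), as the only member called, where 0.945% of 19144 genes rose. At an unadjusted p under 0.05 there were 21 members, all higher, where 8.04% of all genes were higher. That count was 1 with all 20 tumors in 1 fit, 3 with the muscle covariate, 10 without D14 mouse 21, 14 without D14 mouse 27 and 9 without EOS mouse 23. In 30 members both EOS tumors lay above all 3 D14 tumors, where 18.4% of all genes did. Ect2, which places the cleavage furrow, had a log2 fold change of 0.38 ± 0.07 (edgeR adjusted p = 0.0544), and Prc1, which bundles the central spindle, one of 0.34 ± 0.08. DESeq2 called 10 members, all higher, where it called 1749 of 19144 genes in either direction. The call of Cdt1 was lost when any 1 of the 5 tumors (mice 21, 25 and 27 at D14, mice 19 and 23 at EOS) was left out, and without mouse 19 Ube2c was called in its place. Summed muscle genes were at 93.8 and 714 CPM at EOS, below all 3 D14 cabo tumors, and with the muscle score as a covariate no member was called. Other lists also moved. Endothelial genes summed to 219.9 to 269.7 CPM at EOS and 116 to 129 CPM at D14 (3 of 4 called higher), and erythroid precursor genes to 64.7 to 69.2 CPM and 11.6 to 24.1 CPM (2 of the 5 tested called higher). T cell genes summed to 4.38 to 4.62 CPM at EOS and 13.6 to 20.2 CPM at D14 (2 of 6 called lower), and fibroblast genes to 4960 to 5514 CPM and 8110 to 8625 CPM (2 of 5 called lower). Their part in the result was not tested. Of the 141 other genes, Tk1, the thymidine kinase of the nucleotide salvage pathway, was called, at 82.5 ± 4.31 CPM at EOS (n = 2) and 63.7 ± 0.217 CPM at D14 (n = 3).

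IL-27+cabo tumors also had higher means at EOS, in 38 of 45 members and 47% of all genes, with medians of 0.46 and 0.19. However, no member was called by edgeR (0% of all genes) or by DESeq2, which called 326 of 19365 genes. None had an unadjusted p under 0.05, where 3.83% of all genes had. Without mouse 20 the medians were 0.29 and 0.16 and 14 members had an unadjusted p under 0.05. IL-27 tumors had medians of 0.05 (-0.049 without mouse 4 to 0.125 without mouse 8) and -0.09 (-0.206 without mouse 4 to 0.068 without mouse 6), no call by edgeR (0% of all genes) or DESeq2, and 3 members at an unadjusted p under 0.05, where 5.05% of all genes were. These were Cenpe, Cenpf and Top2a, all higher at EOS.

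The difference of the treatment effects between the times was tested in 1 fit over all 20 intratibial tumors. For IL-27+cabo the change of the mitosis genes had a median of 0.77 and 26 of 27 above 0 (48.3% of all genes), and that of the replication genes a median of 0.36. With edgeR no member was called, where 0.0788% of 21563 genes were, and 17 had an unadjusted p under 0.05, all upward, where 3.88% of all genes had. Kif20a had the smallest p (change 1.27 ± 0.34, edgeR adjusted p = 0.341). It was the member that DESeq2 called, where DESeq2 called 191 of 21563 genes. Without mouse 20 the medians were 0.62 and 0.29 and 26 members had an unadjusted p under 0.05. Without D14 control mouse 3 the medians were 0.617 and 0.344 and 10 members had such a p. When 1 EOS tumor was left out, the mitosis median ran from 0.645 (without control mouse 13) to 0.86 (without control mouse 9). For cabo the medians were 0.44 and 0.21, with 42 of 45 members above 0 (48.8% of all genes), no member was called by either tool (edgeR called 0.0788% of all genes), and 4 mitosis genes had an unadjusted p under 0.05, where 4.11% of all genes had. For IL-27 the medians were 0.36 and 0.09, with no call by either tool (0% of all genes with edgeR) and none at an unadjusted p under 0.05, where 1.93% of all genes were. These comparisons share control tumors, so they are not separate evidence. The map of fold changes shows all members side by side.

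**Figure D4:**
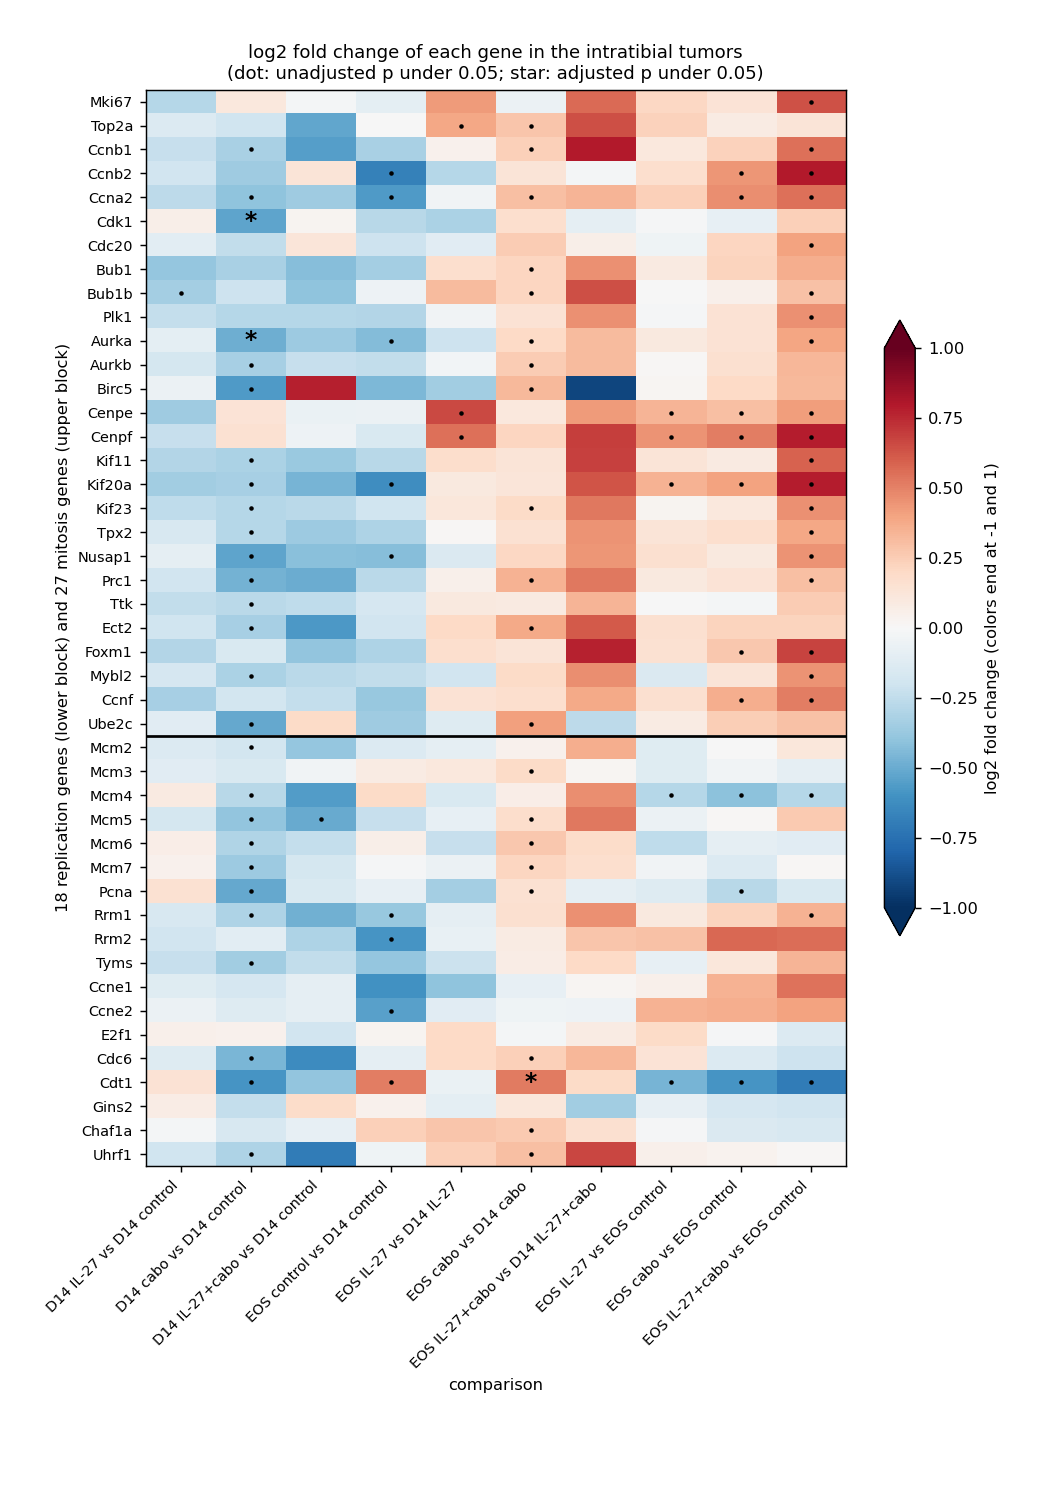
log2 fold change (color, ending at -1 and 1) of the 27 mitosis genes (upper block) and 18 replication genes (lower block) in 10 comparisons of intratibial tumors, with a dot for an unadjusted p under 0.05 and a star for an edgeR adjusted p under 0.05. The 3 stars are Cdk1 and Aurka in D14 cabo against control and Cdt1 in EOS cabo against D14 cabo, and the last column is red throughout the mitosis block and mixed in the replication block.

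In the subcutaneous tumors IL-27 went with large differences that followed GC content. With edgeR 12 members fell, 5 of mitosis and 7 of replication, and none rose, where 16.5% of 19360 genes fell and 3.52% rose. The medians were -0.05 (mitosis) and -0.78 (replication) against 0.04 over all genes. Gins2, a subunit of the replicative helicase, was at 101 and 71.5 CPM in control and at 4.57 and 3.50 CPM under IL-27 (log2 fold change -4.40 ± 0.39, edgeR adjusted p = 0.00138). Plk1, the polo kinase of mitosis, was at 91.4 and 83.6 CPM against 12.6 and 8.00 CPM (-3.07 ± 0.38, adjusted p = 0.00252 in edgeR). Ccnf, E2f1, Cdt1, Mcm2, Mybl2 and Foxm1 also fell, by 2.07 to 2.80 on the log2 scale, and so did Uhrf1, Chaf1a, Mcm5 and Cdc20, by 1.87 to 2.26. Mki67, Top2a, Ccnb1, Cdk1, Ccne1 and Pcna were not called, with log2 fold changes from -0.31 to 0.50.

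The 12 members that fell had exons of 52.8% to 59.0% GC, and the 33 others of 39.8% to 53.6%. Of the 19 members with at least 50% GC, all had a fold change below 0 and 12 were called, while of the 26 with less, 6 were below 0. Over all tested genes, 7408 of the 9653 with at least 50% GC and 2021 of the 9681 with less were below 0. Their medians were -1.04 and 0.63. With each library's trend in GC content and exon length removed, 3 members were still called, where 1779 of 19360 genes were. These were Gins2 (-3.22), Ccnf (-2.12) and Foxm1 (-1.45). The mitosis median became -0.65 and the replication median stayed at -0.78, against -0.12 over all genes. In this fit 44 members lay below 0, where 25 did as counted. Mcm2, E2f1 and Cdt1, the members with the highest GC, went to -0.03, -0.17 and -0.11. Pcna and Mcm4, both at 42% GC, went the other way, from 0.02 and 0.15 to -1.22 and -1.05. The SC IL-27 tumors also held 301 and 843 CPM of summed muscle genes against 2.14 and 10.4 CPM in SC control. Late granulocyte genes were at 38.3 to 39.4 CPM against 1.33 to 2.53 CPM, and T cell genes at 20.4 to 26.9 against 7.69 to 8.56 CPM. Macrophage genes were at 355 to 525 CPM against 796 to 1183 CPM, with 4 of 5 lower and 1 higher at an unadjusted p under 0.05. What part the cells of these lists and the GC trend had in the differences was not tested beyond the corrected fit. Of the 141 other genes, 33 fell and 3 rose. Pold1, a subunit of DNA polymerase delta, and Fzr1, an activator of the anaphase-promoting complex, led those that fell (log2 fold changes -5.14 and -5.03). Next by p came Kifc1, a spindle motor, and Cdkn2a, which encodes an inhibitor of cyclin-dependent kinases (-4.65 and -5.32).

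**Figure D5:**
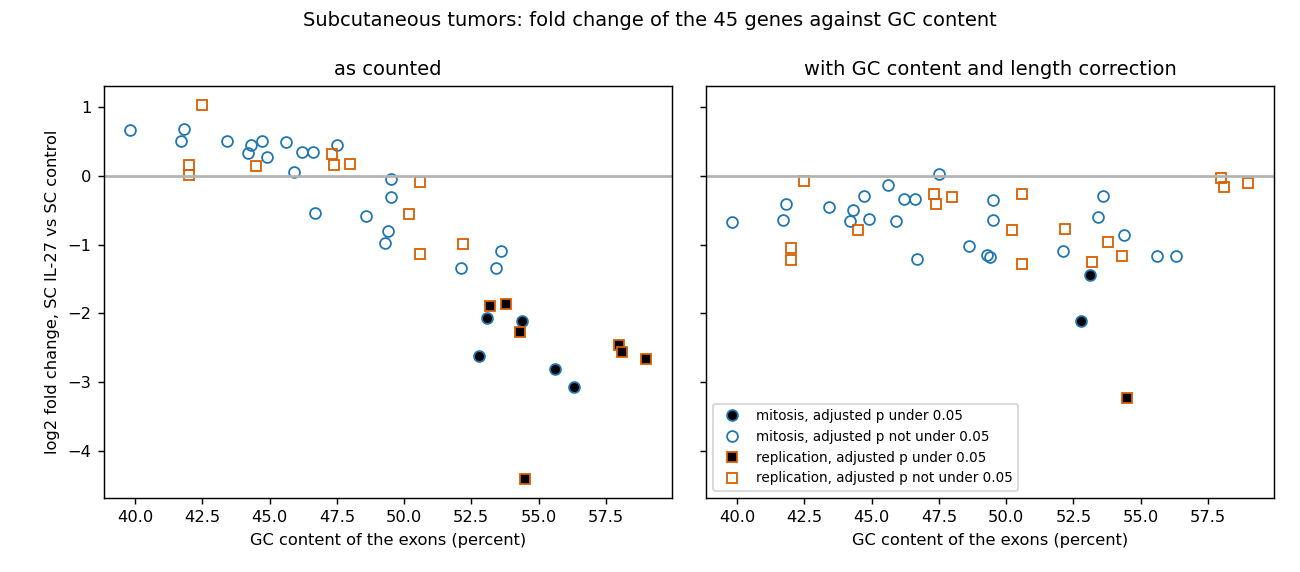
log2 fold change of the 45 genes in SC IL-27 against SC control tumors by the GC content of their exons (percent), as counted (left) and corrected for GC content and length (right), with filled symbols for an edgeR adjusted p under 0.05. All 12 filled symbols on the left lie at 52.8% GC or more, and 3 remain filled on the right.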

How the data were processed

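RNA was sequenced from 24 tumors (stranded poly(A) libraries). The table deposited by the authors holds raw counts, as whole numbers, for each Ensembl gene. Per the labels and the study's methods, reads were aligned with HISAT2 and assembled with StringTie, and the submitters' notes also name FastQC, DESeq2 and GRCh38, a human build, although the gene identifiers are those of mouse. The program that made the counts and its annotation are not given in the sources used here. Between 30.4% and 35.5% of the low counts (1 to 20) were multiples of 4.

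Counts were scaled by TMM, apart for the subcutaneous and intratibial tumors, and log2 CPM used a prior count of 0.5. Groups came from the labels. edgeR 4.0.16 in R 4.3.3 (quasi-likelihood test, filter on low counts, Benjamini-Hochberg adjustment over all genes tested, threshold 0.05, two-sided) was run on 15 comparisons after a test on simulated data. Values after ± are SD for levels and SE for log2 fold changes. Alternatives were DESeq2 1.42.0, RLE scaling, no filter, removal of each library's spline trend (5 degrees of freedom) in GC content and exon length, counts divided by 4, all 20 intratibial tumors in 1 fit, a muscle score as covariate, a replicate block in the subcutaneous tumors, and leaving out each tumor. The subcutaneous titles share replicate numbers, but the deviations of same-numbered tumors had a correlation of 0.075 over 14393 genes, so the numbers were not taken to pair them.

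Members, gene lists and tests were chosen with earlier results of these data known. Named genes were 8 fixed members (Mki67, Top2a, Ccnb1, Cdk1, Mcm2, Pcna, Ccne1, E2f1), the called members with the smallest p (up to 8 in each direction), or the 3 with the smallest p where fewer than 3 were called, up to 4 called genes of the other cell cycle lists, and Cdkn1a and Ccnd1. Other names were chosen after their values were seen. The cell type lists held 69 genes. Promoters came from RefSeq (GRCm38.p6), the first listed for each symbol. Some markers of the prostate epithelium list are not reported here.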

Additional observations from a re-analysis of the deposited data

Results flagged for a closer look

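The mean log2 CPM of the mitosis genes differed between cabo and control tumors in opposite directions at D14 and at EOS, where tumor age may differ between the groups. At D14 all cabo tumors lay below all control tumors (difference -0.28), and at EOS both cabo tumors lay above both control tumors (difference 0.22), so that the EOS difference was 0.5 above that of D14. The difference of these means was not tested. Gene by gene, the change of the cabo effect was above 0 in 27 of 27 mitosis genes, and edgeR called none of them.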

How the results depend on the processing

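For D14 cabo against control, the 2 members called became 13 with DESeq2, 6 with counts divided by 4 and 1 with the GC content and length correction. In these fits 1483 of 18627, 518 of 15379 and 373 of 18627 genes were called. The members called became 0 with no filter, with all 20 intratibial tumors in 1 fit or with the muscle covariate. The muscle covariate also moved the medians to -0.008 (mitosis) and -0.175 (replication). Leaving out 1 tumor gave 0 to 6 calls, mitosis medians of -0.393 to -0.185 and replication medians of -0.333 to -0.204. For EOS cabo against D14 cabo, the 1 call became 10 with DESeq2, where 1749 of 19144 genes were called. With counts divided by 4 it became 2, where 533 of 15633 genes were called. That comparison gave 0 calls with no filter, the GC correction, all 20 tumors or the muscle covariate. Its replication median was 0.218 with the GC correction, 0.097 with the muscle covariate and 0.097 to 0.2 when 1 tumor was left out, with 0 to 1 calls. With the muscle covariate the mitosis and replication medians were 0.261 and -0.102 for D14 IL-27+cabo against control, 0.306 and 0.111 for EOS against D14 IL-27, and -0.288 and -0.136 for EOS against D14 IL-27+cabo. DESeq2 called 2 members for EOS against D14 control, 1 for EOS cabo and 10 for EOS IL-27+cabo against EOS control, and 1 for the change of the IL-27+cabo effect. With the GC correction the replication median was 0.002 for EOS against D14 control and -0.106 for EOS cabo against EOS control. Leaving out 1 tumor gave replication medians of -0.093 to 0.138 for the D14 interaction, -0.077 to 0.037, -0.071 to 0.015 and -0.129 to 0.092 for IL-27, cabo and IL-27+cabo at EOS against control, 0.157 to 0.304 and 0.252 to 0.448 for the change of the cabo and IL-27+cabo effects, and a mitosis median of 0.087 to 0.294 for EOS cabo.

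In the subcutaneous tumors the 12 calls, all lower, became 3 with the GC correction. With DESeq2, 17 members were called lower and 1 higher, where it called 6120 of 19360 genes. The mitosis median was -0.646 with the GC correction and -0.532 to 0.26 when 1 tumor was left out, and the replication median -1.089 to -0.537. With the replicate block, 14 members were called, where 4248 of 19360 genes were. With the block and the GC correction 13 members were, where 2554 of 19360 genes were. In that fit the mitosis median was -0.69 and Pcna turned from 0.016 to -1.168. The causes of these changes were not tested. With 2 or 3 tumors a group, the spread between tumors and not depth limits the tests.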
